A study of Mus musculus with 2 samples.

Results

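The Slc25 genes encode the mitochondrial solute carriers, a family of membrane proteins that each span the membrane several times and swap or import small molecules. They were taken as every gene whose symbol is Slc25a followed by a number, pseudogene symbols left out, which gave 47 of the 39232 genes in the joined count matrices. Most carriers sit in the inner mitochondrial membrane, which is otherwise closed to charged metabolites. Through them ADP, phosphate, citric acid cycle intermediates, amino acids, fatty acylcarnitines, iron, cofactors and nucleotides enter the matrix, and ATP leaves it. In the testis the family is best known for Slc25a31 (ANT4), an ADP/ATP carrier of male germ cells that mice need to complete meiosis, during which the X chromosome, with the somatic paralog Slc25a5 on it, is silenced.

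The data were single-cell RNA counts from testes of male C57 BL/6 mice, with 1 library per group. Per the series' design text, 20 mice entered the study at 5 weeks of age, adapted for 1 week, and were then split into 10 mice on a diet with 60% of energy from fat and 10 mice on maintenance feed, each for 12 weeks. One library's label names the high-fat diet (the high-fat library). The label of the other gives the tissue alone, so it is called the tissue-only library, and nothing ties it to a diet by name. No genotype, transgene or drug is named for either library, and it is not stated whether a library held 1 mouse or a pool. With 1 library on each side the spread between animals is unknown, so ratios between the libraries carry no test, and all intervals below cover counting error only.

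The high-fat library had 12661 barcodes and a median of 9772 unique molecular identifiers (UMIs, each standing for 1 captured transcript), and the tissue-only library 13805 barcodes and a median of 13024. After filters and removal of doublet calls, 12196 and 13286 cells were kept. Both samples are labelled as germ cells, yet Sertoli, Leydig, stromal, vascular and lymphoid cells were present in both libraries. Cells were clustered without the Slc25 genes, and clusters were named from marker lists, so that each name means a cell that is like that type by its transcripts. Leptotene and zygotene, elongating, Leydig and lymphoid classes had the highest level of every one of their markers among all 12 classes, in both libraries. The round spermatid classes were less sharply set apart, with 4 of 8, 6 of 10 and 4 of 8 markers highest in the early, middle and late class. So were spermatogonia (12 of 22 high-fat, 11 of 22 tissue-only) and late spermatocytes (12 of 24 and 13 of 24). Summed markers of middle round spermatids were higher in another class of the tissue-only library (5240.5 against 5138.5 CPM). The same held for late round spermatids of the high-fat library (4125 against 4013 CPM). Late spermatocytes and all round spermatids fell into clusters that came mostly from 1 library each, so a ratio between the libraries in these classes also compares different clusters. Small classes held transcripts of abundant germ cells, called free RNA below, though their source was not tested. The 15 germ cell transcripts measured stood in Sertoli cells at a median of 74.2% (high-fat) and 66.6% (tissue-only) of their whole-library level. In spermatogonia the medians were 45.5% and 32.8%. Single transcripts ranged from 59.8% to 155% and from 41.4% to 111% in Sertoli cells. In spermatogonia they ranged from 32.5% to 175% and from 27.0% to 209%. Levels expected from free RNA use the medians and are rough. The libraries shared 1507 barcode names, which are running labels and not sequences.

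For each class of each library the counts of its cells were added up, and levels are given as CPM, the count scaled to a class total of 1000000 UMIs. Of the 47 members, 44 had at least 20 UMIs in at least 1 class of each library. Slc25a15 (ornithine), Slc25a22 (glutamate) and Slc25a34 did not, with 26, 25 and 15 UMIs over all kept cells of the high-fat library and 32, 17 and 22 in the tissue-only library. In germ cell classes 43 members reached 20 UMIs in each library, and in somatic classes 34 (high-fat) and 27 (tissue-only).

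The upstream regions of the 3 ADP/ATP carrier genes are shown first, because these paralogs were abundant in different cells, as described below for germ cells and Sertoli cells. They are the 250 bases before the annotated start, on the gene's strand, from RefSeq on GRCm38.p6. Capitals mark matches to 4 motifs that were searched on both strands: TCCCGC (the core of E2F sites), CACGTG (an E-box), GCATGCGC (a part of NRF1 sites) and TATAA. Slc25a31 lies at chr3:40708621-40708870 on the plus strand, Slc25a4 at chr8:46211063-46211312 on the minus strand and Slc25a5 at chrX:36795347-36795596 on the plus strand.
Slc25a31: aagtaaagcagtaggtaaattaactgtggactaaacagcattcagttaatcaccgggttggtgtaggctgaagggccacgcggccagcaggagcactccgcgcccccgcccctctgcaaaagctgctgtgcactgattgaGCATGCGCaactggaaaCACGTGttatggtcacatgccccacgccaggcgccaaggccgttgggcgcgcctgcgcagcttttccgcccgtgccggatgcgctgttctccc
Slc25a4: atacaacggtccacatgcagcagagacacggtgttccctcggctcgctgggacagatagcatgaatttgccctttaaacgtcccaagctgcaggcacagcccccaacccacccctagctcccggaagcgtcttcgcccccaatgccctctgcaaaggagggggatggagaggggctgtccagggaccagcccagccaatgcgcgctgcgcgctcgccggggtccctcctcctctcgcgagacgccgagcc
Slc25a5: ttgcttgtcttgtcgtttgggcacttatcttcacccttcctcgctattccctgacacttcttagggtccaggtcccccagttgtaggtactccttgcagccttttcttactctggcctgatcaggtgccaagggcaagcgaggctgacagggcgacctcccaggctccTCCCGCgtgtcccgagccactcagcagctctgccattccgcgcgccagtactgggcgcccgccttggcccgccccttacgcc

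In the 250 bases before the start Slc25a31 held the E-box and the NRF1 motif, Slc25a5 held the E2F core, and Slc25a4 held none of the 4. An E2F core lay 21 bases after the start of Slc25a31, in the stretch chr3:40708880-40708909. TATAA lay 6 bases after the start of Slc25a4 and 27 after that of Slc25a5, in the stretches chr8:46211039-46211068 (minus strand) and chrX:36795612-36795641. They are shown because the shares given next also count matches after the start, and the E2F core also because E2F6 is a known repressor of Slc25a31 in mouse somatic cells.
Slc25a31, after the start: agcgcccgcttTCCCGCcagggtaaagctg
Slc25a4, around the start: cgagccggggaTATAAggagggctgcggtc
Slc25a5, after the start: ggctgccgctaTATAAgtcggccatttgct
Among 32851 RefSeq windows that hold the 250 bases before a start and a short stretch after it, 20.0% held TCCCGC, 7.15% CACGTG, 2.71% GCATGCGC and 24.9% TATAA. Of the 36 members with a window, 10 held TCCCGC, 7 CACGTG, 2 GCATGCGC and 5 TATAA in any of their windows. These count genes, which may have several windows, while the shares count windows, so the 2 are not on the same footing. A match describes letters only, and none of the windows was measured in this study.

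The ADP/ATP carriers differed by cell class. Slc25a31 was the main ADP/ATP carrier transcript from spermatogonia to late round spermatids, and Slc25a4 and Slc25a5 were the main ones in Sertoli cells and in the elongating spermatid class. From spermatogonia through leptotene and zygotene spermatocytes, late spermatocytes, early, middle and late round spermatids to elongating spermatids, Slc25a31 stood at 135, 166, 106, 57.3, 24.9, 9.84 and 18.5 CPM in the high-fat library. In the tissue-only library the same 7 stages had 166, 201, 94.2, 53.0, 25.8, 8.96 and 17.3 CPM. Its level was thus highest before the pachytene stage and lower at each step from there to late round spermatids, in both libraries.

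Slc25a4 (ANT1, the carrier of muscle and other somatic tissue) was near the bottom of the scale in most germ cells. It had 1.26 CPM (95% Poisson interval 1.04 to 1.52) in late spermatocytes of the high-fat library and 0.984 CPM (0.785 to 1.22) in those of the tissue-only library. In Sertoli cells it had 349 CPM (328 to 372) and 299 CPM (274 to 325). Slc25a5 (ANT2, the carrier of dividing cells) had 1.498 and 1.11 CPM in late spermatocytes, and 183 and 125 CPM in Sertoli cells.

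Slc25a31 made up 79.3% (exact Clopper-Pearson 95% interval 75.8 to 82.6) of the UMIs of the 3 genes in spermatogonia of the high-fat library, and 87.7% (84.5 to 90.4) in the tissue-only library. In late spermatocytes its share was 97.5% (97.1 to 97.8) and 97.8% (97.5 to 98.1). It was 72.4% (67.7 to 76.8) and 74.1% (67.6 to 80.0) in late round spermatids. In Sertoli cells the share was 6.67% (5.49 to 8.01) and 10.2% (8.30 to 12.4), and there Slc25a31 itself had 38.0 and 48.3 CPM, where free germ cell RNA would give 50.6 and 41.6 CPM. A share sets UMIs of different genes side by side with no correction for transcript length or capture.

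The elongating class differed from the round spermatids: Slc25a31 made up 11.3% (7.84 to 15.5) and 14.7% (8.30 to 23.5) of the 3 carriers there. Slc25a4 had 100.4 CPM in its high-fat cells and 69.1 CPM in its tissue-only cells, 69.0 and 50.9 times its level in late round spermatids. This class also carried Sertoli transcripts. The 13 detected Sertoli markers stood in it at 9.75% to 23.7% (median 17.3%) of their Sertoli level in the high-fat library and at 2.50% to 35.6% (median 24.7%) in the tissue-only library, with summed levels of 3481 and 2527 CPM. Slc25a4 stood at 28.7% and 23.1% of its own Sertoli level and Slc25a5 at 24.6% in each library, just above the range of the markers in the high-fat library and inside it in the tissue-only library. With classes taken from marker scores of single cells in place of clusters, the Slc25a31 share in elongating spermatids was 39.5% and 53.6%. The part of Sertoli RNA in these values was not tested.

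**Figure D1:**
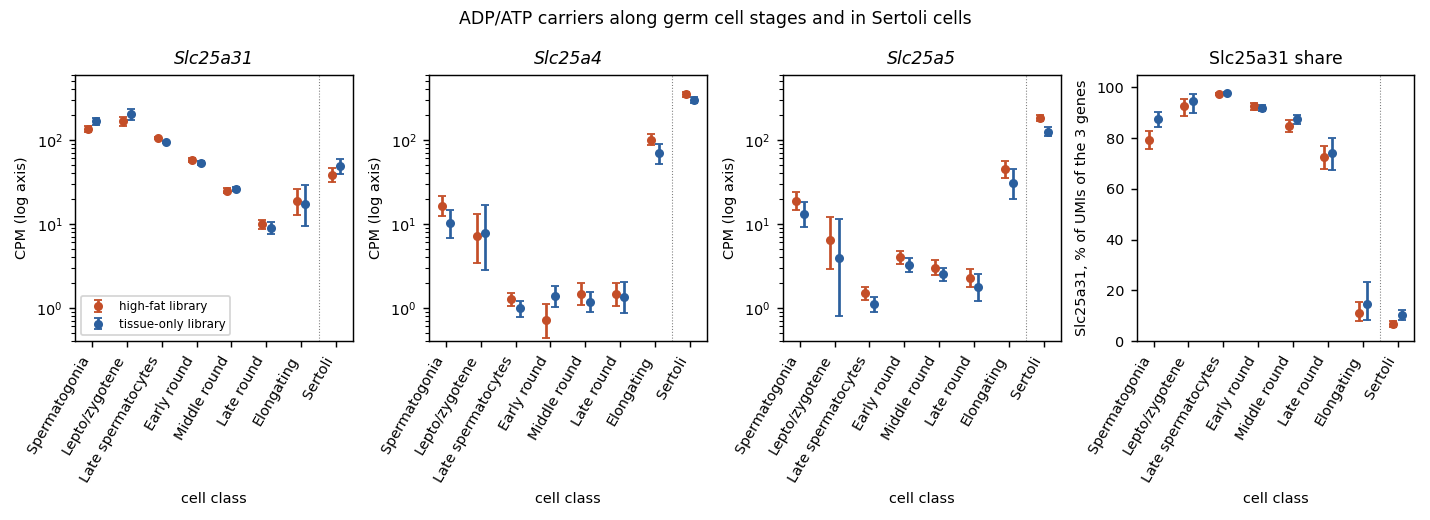
Levels of Slc25a31, Slc25a4 and Slc25a5 (CPM, log axis, exact 95% Poisson intervals) and the Slc25a31 share of the UMIs of the 3 genes (percent, exact 95% binomial intervals) in 7 germ cell stages and in Sertoli cells, high-fat library left of the tissue-only library. The share peaked at 97.5% and 97.8% in late spermatocytes and was 6.67% and 10.2% in Sertoli cells.

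Slc25a3, which imports the phosphate for ATP synthesis, varied less than these. Over the 7 stages it had 141, 99.5, 77.6, 104.7, 124, 145 and 61.1 CPM in the high-fat library and 154, 91.7, 94.7, 122, 131, 138 and 50.6 CPM in the tissue-only library. Its highest level was thus in late round spermatids of the one and in spermatogonia of the other. Elongating spermatids were lowest in both, at 0.421 and 0.367 times the late round level.

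Over the 7 germ cell stages, the summed family was highest in late spermatocytes (high-fat library) and early round spermatids (tissue-only library). It was lower in late round and elongating spermatids of both. Its members together had 1929, 1536, 2283, 2219, 1752, 1455 and 1442 CPM over the 7 stages of the high-fat library. In the tissue-only library they had 1837, 2069, 2207, 2242, 1829, 1429 and 1429 CPM. Sertoli cells had 2221 and 2356 CPM, the second above every germ cell stage of that library. Slc25a39, which imports glutathione, had the most UMIs of the family in every class of both libraries, before any allowance for free RNA. It held 57.4% and 54.0% of the family's UMIs in late spermatocytes, with 1311 and 1192 CPM. In spermatogonia it had 527 and 505 CPM where free RNA would give 497 and 349 CPM. In Sertoli cells it had 665 and 817 CPM where free RNA would give 812 and 708 CPM. Leydig cells had 731 and 893 CPM where free RNA would give 864 and 442 CPM. Lymphoid cells had 378 and 671 CPM where free RNA would give 474 and 468 CPM. How much of the lead of Slc25a39 in these classes came from free RNA was not tested. Its paralog Slc25a40 was lower in late than in leptotene and zygotene spermatocytes, where Slc25a39 was higher: Slc25a40 had 27.7 and 21.9 CPM in leptotene and zygotene spermatocytes and 6.23 and 5.87 CPM in late spermatocytes. From there to late round spermatids both were lower, Slc25a39 at 691 and 678 CPM and Slc25a40 at 1.94 and 2.48 CPM.

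**Figure D2:**
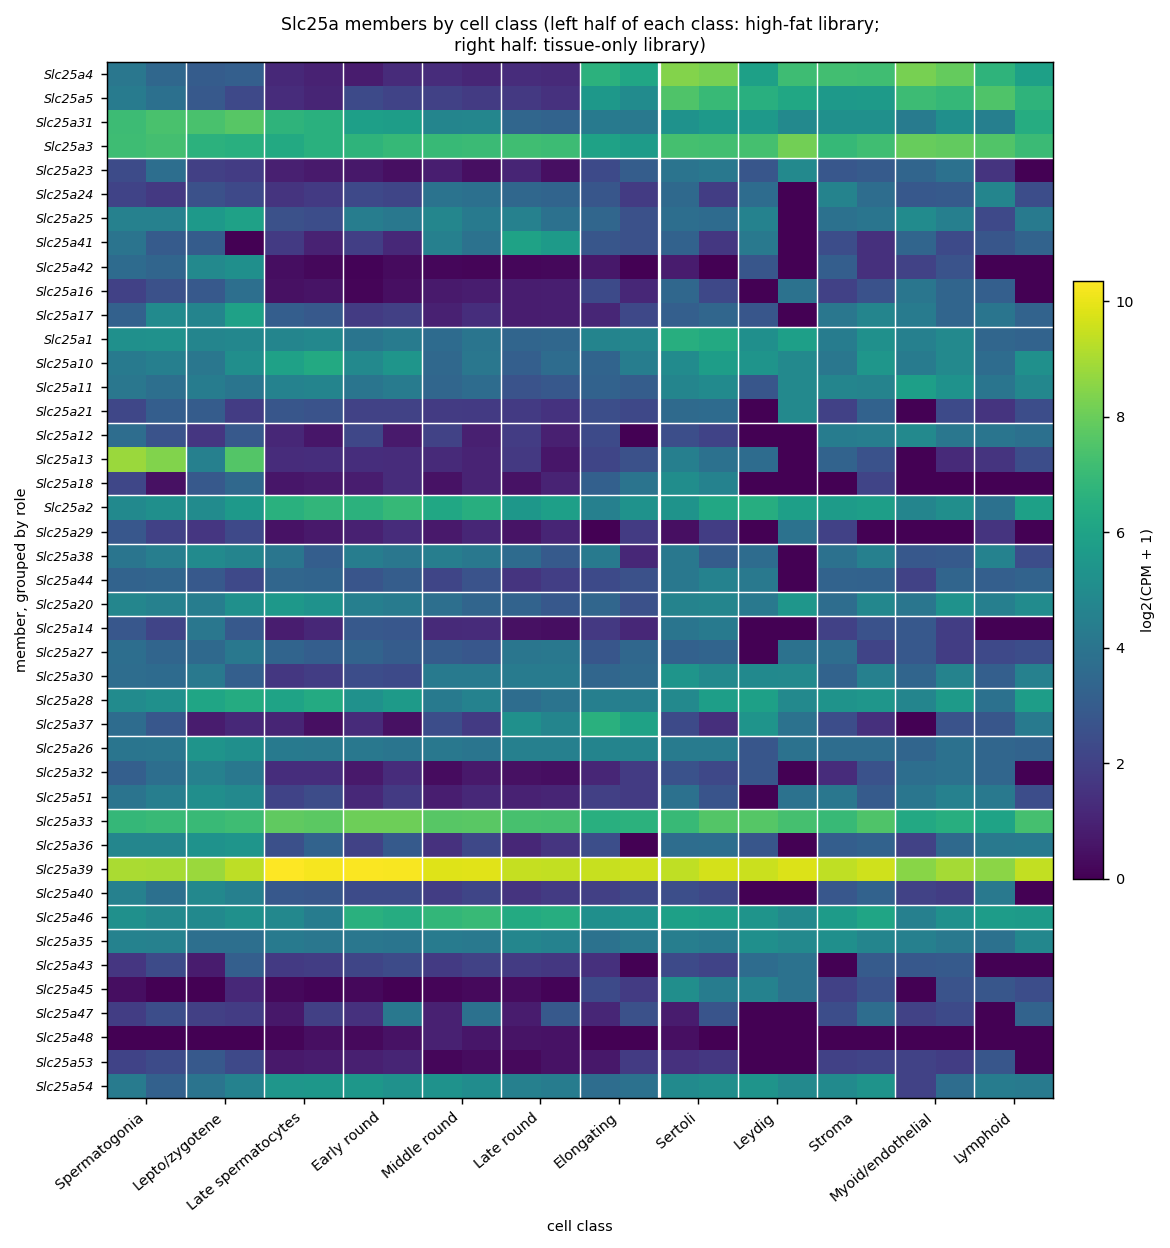
Level of 43 of the 44 members with at least 20 UMIs in some class of each library, as log2(CPM + 1), in 12 cell classes; within each class the high-fat library is on the left and the tissue-only library on the right. Slc25a39 is brightest in every class, and Slc25a31 and the pair Slc25a4 and Slc25a5 are bright in different classes.

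The members with most UMIs in 3 further role groups are given next. Slc25a2, an ornithine carrier, had 29.5, 31.3, 93.9, 98.8, 71.6, 43.7 and 21.9 CPM over the 7 stages of the high-fat library, and 34.6, 46.5, 112, 120.2, 87.9, 55.9 and 38.2 CPM in the tissue-only library. Slc25a28 (mitoferrin 2, an iron importer) had 30.7, 67.5, 64.0, 36.9, 18.5, 12.2 and 21.3 CPM, and 36.1, 81.3, 79.5, 48.9, 23.4, 15.0 and 21.0 CPM. Both were thus lower in round spermatids from the early to the late class, after peaks in early round spermatids for Slc25a2 and in leptotene and zygotene spermatocytes for Slc25a28. Slc25a54, whose substrate is not settled, had 18.8, 14.9, 42.5, 43.8, 37.5, 21.6 and 12.1 CPM, and 8.27, 23.2, 43.8, 37.3, 31.6, 19.3 and 13.6 CPM. In spermatogonia free RNA would give 36.0 and 32.8 CPM of Slc25a2, 16.9 and 12.0 CPM of Slc25a54 and 19.3 and 17.4 CPM of Slc25a28, so the spermatogonia levels of Slc25a2 and Slc25a54 were near or below that background.

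Members differed in the stage of their peak. Of 43 members with enough counts in both libraries, 32 had their highest germ cell level at the same stage in each: 3 in spermatogonia, 13 in leptotene and zygotene spermatocytes, 4 in late spermatocytes, 2, 3 and 3 in early, middle and late round spermatids and 4 in elongating spermatids. Enough meant at least 20 UMIs over all germ cell stages together, so a peak in a small class can rest on fewer. Peaks were not counted for all genes, so these numbers have no background. Steps between neighbouring stages were counted for members with at least 20 UMIs over both stages in each library, where the later stage was at least 2-fold higher or lower in both libraries. The same rule over all genes gives the background. Stages come from clusters of the same cells, so steps are descriptions without a test.

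At the entry into meiosis, 4 of 30 members were higher in leptotene and zygotene spermatocytes than in spermatogonia (13.3%, against 8.89% of all genes) and 1 was lower (3.33%, against 13.4%). Slc25a42, which brings coenzyme A into the matrix, had 28.4 CPM against 11.3 CPM in the high-fat library and 34.9 against 9.40 CPM in the tissue-only library. Slc25a25, a calcium-regulated ATP-Mg/phosphate carrier, had 46.2 against 22.4 CPM and 59.4 against 22.2 CPM. The other pair were Slc25a26 (S-adenosylmethionine; 2.57 and 2.21 times) and Slc25a28 (mitoferrin 2, iron; 2.20 and 2.25 times). Slc25a5 was the lower one, at 0.340 and 0.294 times, on only 9 and 3 UMIs in leptotene and zygotene spermatocytes.

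Between leptotene and zygotene and late spermatocytes, 17 of 42 members were lower (40.5%, against 35.4% of all genes) and 2 were higher (4.76%, against 10.3%). The median log2 ratio of the members was -1.01 in the high-fat library and -1.54 in the tissue-only library, and that of all genes -1.03 and -1.11. Slc25a42 had 0.293 CPM in late spermatocytes of the high-fat library and 0.152 CPM in those of the tissue-only library, 0.0103 and 0.0044 times its earlier level. Slc25a16, Slc25a18, Slc25a32 (folate) and Slc25a13 were each below 0.1 times in both libraries. The higher members were Slc25a2, an ornithine carrier, at 3.001 and 2.42 times, and Slc25a10, the dicarboxylate carrier, at 3.69 and 2.31 times.

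Slc25a10, Slc25a11 and Slc25a20 had their highest level among the 7 germ cell stages in late spermatocytes, in both libraries. Slc25a10 had 60.4 CPM there in the high-fat library and 77.6 CPM in the tissue-only library. Slc25a20, which takes in acylcarnitines for fatty acid oxidation, had 45.6 and 38.2 CPM. Slc25a11, the oxoglutarate carrier of the malate-aspartate shuttle, had 23.3 and 24.8 CPM, and 25.1 and 29.9 CPM in Sertoli cells.

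From late spermatocytes to early round spermatids, 6 of 42 members were higher (14.3%, against 15.3% of all genes) and 2 were lower (4.76%, against 12.5%). Slc25a46, a protein of the outer membrane that acts in mitochondrial shape, had 93.1 against 27.7 CPM in the high-fat library and 84.7 against 19.6 CPM in the tissue-only library. It reached 115 and 126 CPM in middle round spermatids. Slc25a25 came back to 20.1 and 16.9 CPM, against 4.89 and 4.50 CPM in late spermatocytes. Slc25a20 (0.463 and 0.492 times) and Slc25a17, the peroxisomal cofactor carrier (0.338 and 0.449 times), were the lower ones. Slc25a33, a pyrimidine nucleotide carrier, moved less than 2-fold and peaked in early round spermatids at 265 and 270.1 CPM, while its paralog Slc25a36 was highest in leptotene and zygotene spermatocytes at 38.4 and 41.3 CPM.

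In middle against early round spermatids, 5 of 42 members were higher (11.9%, against 16.6% of all genes) and 5 were lower (11.9%, against 3.99%). Slc25a41, a short ATP-Mg/phosphate carrier known from testis, had 21.8 against 2.81 CPM in the high-fat library and 14.0 against 1.28 CPM in the tissue-only library. Slc25a30, of the uncoupling protein branch, had 18.5 against 4.48 CPM and 17.7 against 4.0001 CPM, and Slc25a24, a calcium-regulated ATP-Mg/phosphate carrier, 14.3 against 3.88 CPM and 13.2 against 3.44 CPM. Slc25a37 and Slc25a16 were the other higher ones, the second on 3 UMIs in early round spermatids of the high-fat library. Slc25a10, Slc25a14, Slc25a31, Slc25a32 and Slc25a53 were lower.

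In late against middle round spermatids, 3 of 41 members were higher (7.32%, against 12.5% of all genes) and 2 were lower (4.88%, against 5.46%). Slc25a37 (mitoferrin 1, the iron importer of red cell precursors) had 35.9 against 4.48 CPM in the high-fat library and 25.2 against 2.41 CPM in the tissue-only library. Slc25a41 reached its peak of 61.6 and 48.8 CPM. Slc25a27, a relative of the uncoupling proteins, had 2.28 and 2.75 times its middle round level. Slc25a31 and Slc25a14 were lower.

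In elongating against late round spermatids, 6 of 32 members were higher (18.8%, against 9.12% of all genes) and 4 were lower (12.5%, against 19.4%). Slc25a37 had 93.4 CPM in elongating cells of the high-fat library and 61.7 CPM in those of the tissue-only library, 2367% and 3787% of its Sertoli level. That Sertoli level was only 3.95 and 1.63 CPM, on 11 and 3 UMIs, so these percentages are rough. The other higher ones were Slc25a4, Slc25a5, Slc25a1, Slc25a18 and Slc25a51, all at 21.2% to 64.9% of their Sertoli level, in a class that held Sertoli transcripts as given above. Slc25a51 rested on 5 and 2 UMIs, and with each cell weighted equally its log2 ratio in the tissue-only library was -0.36. Slc25a41 was at 5.77 and 4.93 CPM, 0.0937 and 0.101 times its late round level. This rested on the class assignment: with classes from marker scores its log2 ratio was -0.43 in the high-fat library and 0.0129 in the tissue-only library, against -3.42 and -3.31 with clusters. Slc25a46, Slc25a25 and Slc25a3 were the other lower ones.

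**Figure D3:**
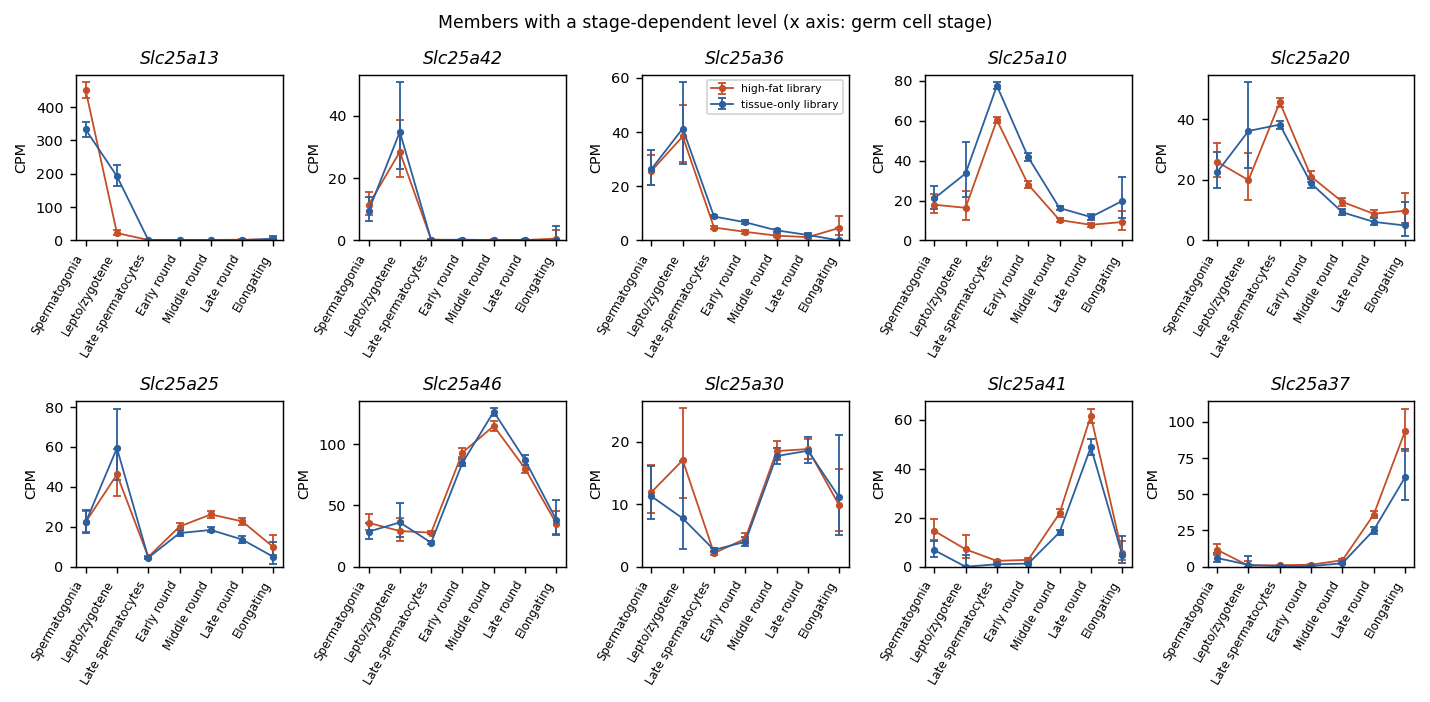
Level (CPM, linear axes from 0, exact 95% Poisson intervals) of 10 members over 7 germ cell stages, high-fat library in orange and tissue-only library in blue. The peaks run from spermatogonia (Slc25a13) through leptotene and zygotene spermatocytes (Slc25a42, Slc25a36, Slc25a25), late spermatocytes (Slc25a10, Slc25a20) and round spermatids (Slc25a46, Slc25a30, Slc25a41) to elongating spermatids (Slc25a37).

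Slc25a5, Slc25a14 (of the uncoupling protein branch), Slc25a43 and Slc25a53 lie on the X chromosome. From leptotene and zygotene to late spermatocytes 3 of these 4 were lower (71.1% of 474 X-linked genes were), and from late spermatocytes to early round spermatids 2 of 4 were higher (58.7% of 509). Slc25a14 had 16.4, 0.777 and 6.48 CPM over these 3 stages in the high-fat library and 6.45, 1.25 and 5.95 CPM in the tissue-only library. Slc25a43 was not counted at either step. At the first its values went in opposite directions, from 0.711 to 2.42 CPM in the high-fat library and from 7.745 to 2.64 CPM in the tissue-only library. The earlier level rested on few UMIs in both libraries, in the high-fat library on fewer than 3, so these directions are rough.

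Slc25a13 (citrin, an aspartate-glutamate carrier of the malate-aspartate shuttle) was high in spermatogonia and near the floor in late spermatocytes and spermatids, and its UMIs were concentrated in few cells. It had 450.5 CPM (428 to 474) in spermatogonia of the high-fat library and 333 CPM (311 to 355) in those of the tissue-only library, against 1.51 and 1.57 CPM in late spermatocytes. UMIs were found in 156 of 885 and 98 of 720 spermatogonia, and a single cell held 148 of 1510 and 89 of 885 of them. After thinning every cell to 1000 UMIs, 10.6% and 7.08% of spermatogonia had a UMI, against 1.97% and 1.57% of Sertoli cells, whose median depth was 1538 and 1348 UMIs against 2283 and 2295 in spermatogonia. In leptotene and zygotene spermatocytes it had 22.0 and 192 CPM, and 1 cell of the tissue-only library held 92 of the 149 UMIs there. Spermatogonia markers stood in that class at a median of 12.3% and 8.48% of their spermatogonia level. Single markers ranged from 0% to 802% and from 0% to 937%, and their summed level was 53.2% and 57.8% of that in spermatogonia. Slc25a13 stood at 4.89% and 57.8% of its own spermatogonia level. The paralog Slc25a12 (aralar) had 11.9 and 5.26 CPM in spermatogonia.

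Sertoli cells, which nurse the germ cells and supply them with lactate, had several carriers above the level that free germ cell RNA would give. Besides Slc25a4 and Slc25a5 they included Slc25a1, the citrate carrier that feeds fatty acid synthesis, with 87.9 CPM in the high-fat library and 77.1 CPM in the tissue-only library, against 14.7 and 14.4 CPM from free RNA. Slc25a18, a glutamate carrier, had 33.0 and 22.8 CPM, against 0.906 and 0.891 CPM from free RNA. Slc25a45, whose substrate is not settled, had 34.1 and 19.5 CPM, against 0.565 and 0.221 CPM, and was at most 0.298 CPM in every germ cell class of the high-fat library before elongating spermatids. Slc25a30 had 41.3 and 28.2 CPM, against 6.65 and 5.70 CPM. Slc25a14 (15.1 and 17.9 against 1.57 and 1.55 CPM), Slc25a23 (14.7 and 16.8 against 0.952 and 0.639 CPM) and Slc25a44, a carrier of branched-chain amino acids (16.9 and 23.3 against 5.07 and 4.90 CPM), were also above it.

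In the other somatic classes Slc25a4 was also the most abundant ADP/ATP carrier outside Leydig and lymphoid cells. It had 298 and 237 CPM in myoid and endothelial cells and 148 and 144 CPM in stroma. In lymphoid cells Slc25a5 led with 182 and 107 CPM, against 104.6 and 57.8 CPM of Slc25a4. Leydig cells (74 and 27 cells) had 3 and 2 members with 20 UMIs, too few for more. Fewer transcripts per cell and a different mix of cells inside a class cannot be told apart in these sums.

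Between the libraries, a member was counted as past 2-fold where it had at least 20 UMIs over both libraries in a class, the ratio was at least 2 or at most 0.5, and the 95% interval from counting excluded 1. Over the 7 germ cell classes this gave 17 calls of higher and 20 of lower levels in the high-fat library, spread over classes as given below. Ratios are the high-fat library over the tissue-only library throughout.

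Slc25a47, a carrier known from mouse liver, was lower in the high-fat library in late spermatocytes and in all round spermatids. It had 1.81 CPM in early round spermatids of the high-fat library (51 UMIs) and 16.9 CPM in those of the tissue-only library (634 UMIs), a ratio of 0.107 (0.0791 to 0.143). In middle round spermatids it had 0.909 and 13.4 CPM, a ratio of 0.0677 (0.0449 to 0.0982), and in late round spermatids 0.727 and 6.37 CPM, a ratio of 0.114 (0.0680 to 0.183). In late spermatocytes the levels were 0.608 and 2.90 CPM. Its UMIs were spread over 45 of 1144 and 510 of 2037 early round spermatids, and no cell held more than 2 and 5 of them. Its exons overlap Mir345 on the same strand.

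Slc25a12, the paralog of citrin, went the other way. It had 3.56 CPM (100 UMIs) in early round spermatids of the high-fat library and 0.667 CPM (25 UMIs) in those of the tissue-only library, a ratio of 5.34 (3.42 to 8.64). The ratio was 3.42 in middle and 2.94 in late round spermatids, 2.33 in late spermatocytes and 2.27 in spermatogonia. Without the 1 cell that held 14 of its 40 UMIs in spermatogonia of the high-fat library, and the top cell of the other library, that last ratio was 1.72 (0.838 to 3.74). These are low levels: the highest was 11.9 CPM.

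In spermatogonia 3 of 39 members were higher in the high-fat library (7.69%, against 7.93% of all genes) and 2 were lower (5.13%, against 5.66%). The higher ones were Slc25a54, a gene of unsettled substrate with 18.8 and 8.27 CPM, Slc25a12 and Slc25a41. Free RNA would give 16.9 and 12.0 CPM of Slc25a54. For Slc25a41, with 14.6 and 6.77 CPM, it would give 7.45 and 3.03 CPM, and for Slc25a12 1.14 and 0.314 CPM. The lower ones were Slc25a17, with 8.35 and 30.1 CPM, and Slc25a23, a calcium-regulated ATP-Mg/phosphate carrier, with 4.18 and 12.4 CPM. In leptotene and zygotene spermatocytes none of 27 was higher (7.79% of all genes were) and 3 were lower (11.1%, against 3.74%). Slc25a17 had 24.2 and 59.4 CPM, Slc25a10 had 16.4 and 33.6 CPM, and Slc25a13 had the values given above, a ratio of 0.115 (0.0752 to 0.170). Without the top cell of each library the ratio of Slc25a13 was 0.229 (0.136 to 0.375).

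In late spermatocytes 5 of 45 members were higher (11.1%, against 11.3% of all genes) and 2 were lower (4.44%, against 7.59%). The one on most UMIs was Slc25a38, a glycine carrier needed for haem synthesis, with 15.9 CPM in the high-fat library and 7.43 CPM in the tissue-only library, a ratio of 2.14 (1.95 to 2.35). Slc25a37 (3.30), Slc25a45 (3.08), Slc25a41 (2.37) and Slc25a12 were the others, at 0.180 to 2.39 CPM in the high-fat library. Slc25a48 (0.332) was lower beside Slc25a47.

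In early round spermatids 3 of 41 members were higher (7.32%, against 10.9% of all genes) and 3 were lower (7.32%, against 7.44%). Slc25a37 (3.47) and Slc25a41 (2.20) were higher beside Slc25a12, and Slc25a32 (0.429) and Slc25a36 (0.473) were lower beside Slc25a47. In middle round spermatids 2 of 41 were higher (4.88%, against 9.69%) and 4 were lower (9.76%, against 8.51%), with Slc25a23 (2.48) beside Slc25a12, and Slc25a18 (0.409), Slc25a32 (0.430) and Slc25a36 (0.472) beside Slc25a47. In late round spermatids 3 of 39 were higher (7.69%, against 10% of all genes) and 4 were lower (10.3%, against 9.05%).

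Among the late round spermatid members, Slc25a13 was higher at 2.29 CPM in the high-fat library and 0.531 CPM in the tissue-only library, a ratio of 4.31 (2.14 to 9.83), but 1 high-fat cell held 42 of its 66 UMIs. Without the top cells the ratio was 1.76 (0.765 to 4.53). Slc25a23 (3.03) was also higher, and Slc25a18 (0.392) and Slc25a29 (0.402) were among the lower ones beside Slc25a47. In elongating spermatids 1 of 22 was higher (4.55%, against 6.49% of all genes) and 2 were lower (9.09%, against 4.65%). Slc25a38 had 31 UMIs in the high-fat cells and 1 in the tissue-only cells, a ratio of 14.5 with an interval from 2.42 to 591. Slc25a10 was among the lower ones, on 16 UMIs in each library. Its ratio of 0.468 had an interval from 0.219 to 0.999, which only just excluded 1.

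In Sertoli cells 5 of 36 members were higher (13.9%, against 12.8% of all genes) and none was lower (4.23% of all genes were). These were Slc25a24 (3.97), Slc25a41 (3.97), Slc25a16 (2.64), Slc25a51, the NAD carrier (2.51), and Slc25a38 (2.34), and in the tissue-only library each rested on 4 to 13 UMIs. The direction turned for Slc25a41 with free RNA subtracted (log2 ratio -0.39) and for Slc25a51 with each cell weighted equally (-0.0045). Slc25a41 had 8.61 and 2.17 CPM, below the 12.2 and 6.16 CPM that free RNA would give. In the tissue-only library Slc25a24 and Slc25a38 were also below it, at 2.71 against 3.96 CPM and 7.06 against 8.09 CPM. In stroma none of 20 was higher (5.44% of all genes were) and 1 was lower (5%, against 3.39%), Slc25a10 with 16.4 and 42.4 CPM. Stroma held germ cell transcripts at a median of 65.9% and 65.0% of their whole-library level. In lymphoid cells none of 9 was higher (10.2% of all genes were) and 4 were lower (44.4%, against 14.4%), among them Slc25a2, Slc25a31 and Slc25a33. Germ cell transcripts stood in that class at 43.3% of their level in the whole high-fat library and 43.95% in the tissue-only library. Slc25a2, Slc25a31 and Slc25a33 rested on 7 to 33 UMIs in the high-fat library. There they were below the level that free RNA would give (13.6 against 34.3, 21.3 against 29.5 and 63.9 against 91.0 CPM). In the tissue-only library they were above it (57.8 against 44.0, 84.5 against 27.5 and 156 against 93.7 CPM). Of 5 members in Leydig cells none was higher or lower (18.7% and 7.39% of all genes were), and of 19 in myoid and endothelial cells none was either (4.59% and 6.51%).

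**Figure D4:**
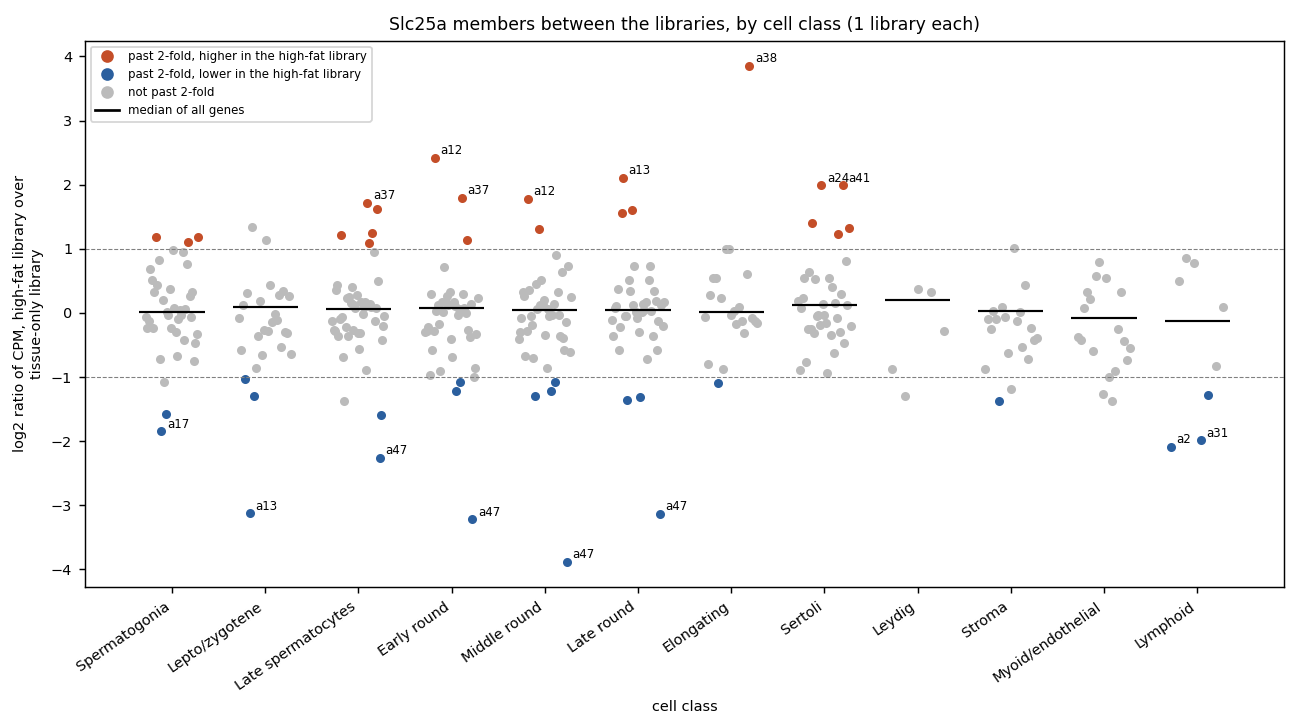
Log2 ratio of CPM, high-fat library over tissue-only library (1 library each), for members with at least 20 UMIs in a class; orange and blue points are past 2-fold with a counting interval that excludes 1, grey points are not, and black bars mark the median of all genes in the class. Slc25a47 lies lowest in the 3 round spermatid classes, and most members lie between the dashed 2-fold lines.

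The ADP/ATP carriers, Slc25a3, Slc25a39 and Slc25a33 were within 2-fold between the libraries in all 7 germ cell classes and in Sertoli cells. The median log2 ratio of the members lay between -0.27 (leptotene and zygotene spermatocytes) and 0.03 in the germ cell and Sertoli classes, where that of all genes lay between 0.01 and 0.12.

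Of 28 genes around the carriers (the uncoupling proteins, pyruvate carriers, outer membrane channels, sideroflexins and the machinery that inserts carriers), 27 were in the files. Between late spermatocytes and leptotene and zygotene spermatocytes, 1 of 20 was higher (Vdac2; 10.3% of all genes were) and 6 of 20 were lower (35.4% of all genes were), among them Ucp2, an uncoupling protein, with 0.901 against 12.8 CPM in the high-fat library and 1.30 against 20.7 CPM in the tissue-only library. Vdac3, an outer membrane channel, had 743 and 867 CPM in late spermatocytes. Between the libraries, at most 2 of the 18 to 24 of these genes with enough counts were past 2-fold in any germ cell class, where 3.74% to 11.3% of all genes were in each direction. Timm10, a chaperone that guides carriers across the space between the membranes, was lower in all 3 round spermatid classes: 16.4 and 50.7 CPM in the early, 7.08 and 28.5 CPM in the middle and 4.50 and 18.1 CPM in the late class, for the high-fat and the tissue-only library. Its paralog Timm10b was at 69.2 and 68.2 CPM in early round spermatids.

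Several members share exon bases with another annotated gene: Slc25a10, Slc25a11, Slc25a18, Slc25a21, Slc25a23, Slc25a25, Slc25a26, Slc25a33, Slc25a35, Slc25a37 and Slc25a46 on the opposite strand, and Slc25a47 and Slc25a51 on the same strand. Whether the counting used strand is not given in the sources used here, so reads of such pairs may not be told apart. Slc25a5 has a pseudogene copy, and its counts are uncertain to the extent that reads were split between them.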

How the data were processed

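Per the file headers, the authors deposited raw UMI counts per gene and cell from droplet libraries, written by PISA 1.0; the submitters' processing notes name Cell Ranger 2.1.1. The aligner, genome build, annotation and strand setting were not given in the sources used here. Cells with at least 500 UMIs, 250 genes and at most 20% mitochondrial UMIs were kept. Scrublet (scanpy 1.11.5, expected rate 6%) marked 462 doublets (3.65%) in the high-fat library and 517 (3.75%) in the tissue-only library, which were removed. Counts scaled to 10000 per cell were reduced to 2000 variable genes, without the 48 Slc25a symbols, then to 50 principal components, and clustered by Leiden (leidenalg 0.10.2; 20 neighbours, resolution 1; 24 clusters). Clusters were named from marker lists, with naming thresholds set after the clusters were seen, and 4 stayed unnamed. Counts were summed per library and class. Intervals are exact Poisson (levels), Clopper-Pearson (shares) and conditional binomial (ratios), at 95%, and cover counting error only. No test or p-value is given, because each group is 1 library. The expected level from free RNA is the gene's whole-library CPM times the median share that 15 germ cell transcripts reached in that class. Named with values were the ADP/ATP and phosphate carriers, in each role group the member with most UMIs and that with the widest range, and the members with the largest ratios each way among those past 2-fold in a comparison; others are given by counts, 1 member is counted but not reported here by name or in figures, and a few beyond the rule (such as Slc25a40, Slc25a45 and Slc25a11) were chosen after their values were seen. The members and gene lists were chosen with earlier results of these data known. Alternatives changed the class assignment, doublets, depth, weighting of cells, free RNA, count minimum and fold. Python 3.11.15, numpy 2.4.6, scipy 1.17.1, pandas 2.3.3 and matplotlib 3.10.9 were used, and the counting steps were tested on simulated data.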

Additional observations from a re-analysis of the deposited data

Results flagged for a closer look

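Slc25a13 and Slc25a23 differed between the libraries in opposite directions in different classes. For Slc25a13 the log2 ratio of the high-fat over the tissue-only library was -3.13 in leptotene and zygotene spermatocytes and 2.11 in late round spermatids; without the top cell of each library these were -2.13 and 0.82. For Slc25a23 it was -1.57 in spermatogonia, 1.31 in middle and 1.60 in late round spermatids. The differences between classes were not tested.

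The pseudogene symbol Slc25a5-ps, which was left out of the family, had 2 UMIs over all kept cells of the high-fat library and 5 in the tissue-only library.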

How the results depend on the processing

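Of the log2 ratios that were past 2-fold, 1276 values under alternatives stayed within a set tolerance, 55 moved beyond it and 4 reversed. The tolerance was a shift of 2-fold for steps between stages, and counting error for ratios between the libraries. It is wide where UMIs are few, so a value within it need not have stayed past 2-fold. Of counts and shares 460 stayed close and 194 moved. The causes were not tested. The reversed values were Slc25a41 in Sertoli cells between the libraries (-0.39, free RNA subtracted), Slc25a51 in the same cells (-0.0045, each cell weighted equally), and, in elongating against late round spermatids of the tissue-only library, Slc25a41 (0.0129, marker scores) and Slc25a51 (-0.36, cells weighted equally).

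In germ cell classes the 20 calls of lower levels in the high-fat library were 12 with at least 50 UMIs and 34 at 1.5-fold. In somatic classes the 5 higher calls were 12 with marker scores, 3 with doublets kept, 11 with cells of at least 2000 UMIs, 3 with cells weighted equally, 2 with free RNA subtracted and 1 with at least 50 UMIs. The 5 lower calls were 8, 8, 11 and 1 with at least 2000 UMIs, equal weights, free RNA subtracted and at least 50 UMIs, and 12 at 1.5-fold. The 31 lower stage steps were 61 at 1.5-fold.

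The Slc25a31 share in late spermatocytes was 96.9% (high-fat) and 96.8% (tissue-only) with cells weighted equally, and in elongating spermatids 39.5% and 53.6% with marker scores. In Sertoli cells of the high-fat library it was 11.6% with doublets kept and 0% after free RNA was subtracted; in the tissue-only library it was 13.1% when clustered alone, 17.1% with at least 2000 UMIs, 6.55% with equal weights and 1.58% after subtraction. Members detected in somatic classes were 17 (free RNA subtracted) and 21 (at least 50 UMIs) in the high-fat library, and 16 (at least 2000 UMIs), 16 and 15 in the tissue-only library.

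No paired analysis was possible because each group is 1 library. Small classes set the limit: Leydig cells had 74 and 27 cells.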
